A study of Mus musculus with 3 samples.

Results

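Non-classical monocytes (ncMonos) of mouse peripheral blood (PB) were taken here as the barcodes that passed a marker gate, and 1002 of 12792 barcodes kept after quality filtering passed it. The members were chosen by measured values: a barcode needed at least 200 genes, at most 10% mitochondrial counts, at least 4 unique molecular identifiers (UMIs) of Pparg, Cd300e, Ace and Treml4 together, and at most 2 UMIs of F13a1 and Vcan together. It was also limited to 2 UMIs of Cd3e, Cd3g, Cd79a and Retnlg together. The gate took 162 of 3811 naive barcodes, 232 of 4567 D11 barcodes and 608 of 4414 D14 barcodes.

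PB immune cells were measured by scRNA-seq in wild type Balb/C mice, either naive or engrafted with BBC2 cells and sampled at day 11 (D11) or day 14 (D14). BBC2 is a transplantable BCR-FGFR1 leukemia line that gives a mouse stem cell leukemia/lymphoma (SCLL), so both leukemic groups carry the same line and the naive group carries none. Red cells were lysed and dead cells removed in all groups before 10x Genomics 3′ libraries were made, and the number of mice behind each library was not stated. There was 1 library per condition, so no difference below has a replicate check, none was tested, and condition and library cannot be told apart.

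The gated cells held 1347843 UMIs (naive), 2131903 (D11) and 6204653 (D14). Their median depth was 7996.5, 8232.5 and 9435 UMIs per cell in the same order, and their median number of genes was 2910, 2950.5 and 3225. UMIs were summed over the gated cells of a library and are given as CPM, the counts scaled to a common total of that sum. Brackets hold exact 95% intervals, Poisson for levels, conditional binomial for ratios and Clopper-Pearson for shares, and all of them cover counting error only. The libraries shared 12, 14 and 18 cell barcodes (naive with D11, naive with D14, D11 with D14), and 0 of the shared barcodes were gated in both libraries.

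Monocytes leave the bone marrow as classical, Ly6C-high cells, some of which convert in the blood to non-classical, Ly6C-low cells that depend on the nuclear receptor Nr4a1. Non-classical monocytes crawl along the inner wall of vessels, take up debris and damaged cells, and carry the Fc receptor FcγRIV (Fcgr4) and the fractalkine receptor Cx3cr1. They depend on signals through the receptor Csf1r and on Bcl2 for survival.

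The label was first checked on genes that the gate did not use. Adgre4, an adhesion receptor of these cells, had 1433 CPM in naive, 1341 CPM in D11 and 1412 CPM in D14 gated cells, and 165.5, 109.8 and 139.4 CPM in barcodes of a mirror gate for classical monocytes (F13a1 and Vcan). Retnlg neutrophils had at most 2.48 CPM of it and T cells at most 2.30 CPM. Nr4a1 had 359, 437 and 526 CPM in the gated cells, against 55.2, 63.2 and 93.5 CPM in the classical gate. Csf1r had 504.5, 635 and 789 CPM, against 291.5, 245 and 198 CPM there. Not every gene of the ncMono identity list of 28 went that way. Itgb7, an integrin chain, had 67.5, 58.6 and 53.0 CPM against 164, 187 and 189.8 CPM in the classical gate, and Sema4a had 51.2, 44.1 and 36.8 CPM against 81.0, 88.9 and 88.6 CPM. Nfil3 was close to the classical gate, with 47.5, 57.7 and 84.1 CPM against 43.8, 54.4 and 74.8 CPM.

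**Figure D1:**
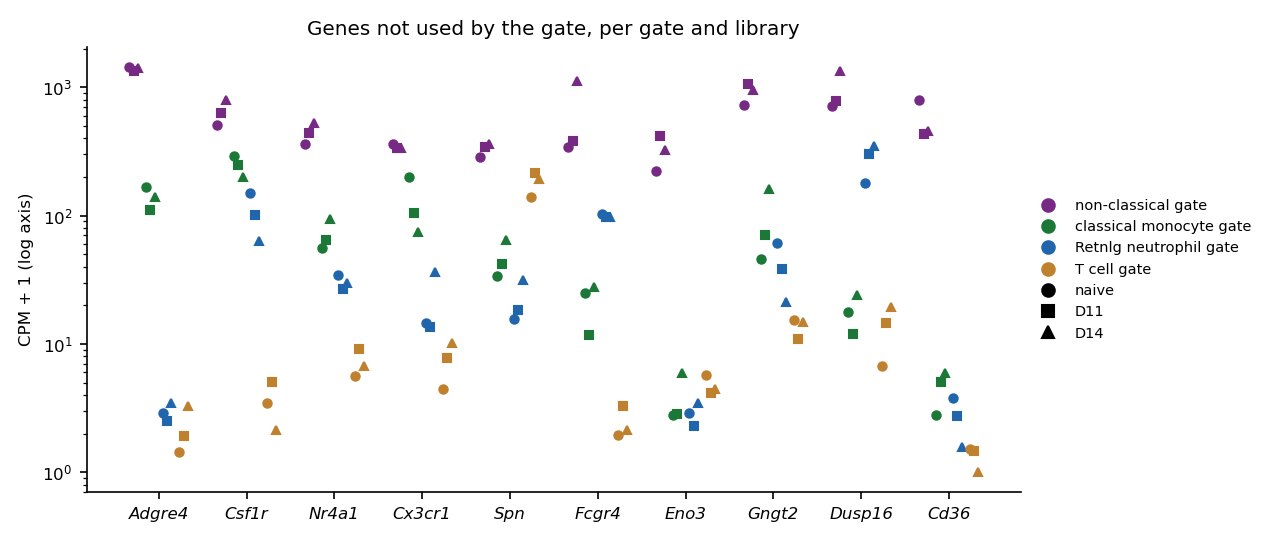
Level in CPM plus 1 (log axis) of 10 of the 28 ncMono identity genes that the gate did not use, for the summed cells of 4 marker gates (colours) in the 3 libraries (shapes). In each library the gated ncMonos lie above the classical monocytes for all 10 genes, with Adgre4 between 1341 and 1433 CPM.

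The values of the gate genes themselves only describe the choice of members. Pparg, a lipid-sensing nuclear receptor, had 685, 634 and 649.5 CPM in naive, D11 and D14 gated cells. Cd300e, an activating receptor, had 189.9, 362 and 371.5 CPM. Ace, which encodes angiotensin-converting enzyme, had 548, 580 and 463 CPM, and Treml4 had 439, 444 and 434 CPM. At the lower edge of the gate, 16 naive, 8 D11 and 13 D14 barcodes had 4 gate UMIs and 32, 9 and 16 barcodes had 3. Adgre4 had 251, 631 and 989 CPM in the barcodes with 4 gate UMIs, and 149, 406.5 and 1221 CPM in those with 3, which were left out. The exclusion of other lineages took out a further 56, 65 and 102 barcodes with enough gate UMIs.

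The naive gate also held barcodes with neutrophil transcripts. At least 20 UMIs of S100a8, S100a9, Csf3r, Cxcr2, Il1r2 and Stfa2l1 were found in 30 of the 162 naive members (18.5% [12.9 to 25.4]), 20 of 232 D11 members (8.62%) and 9 of 608 D14 cells (1.48%). In the naive library these cells held 97.4% of the neutrophil UMIs, had a median of 5.5 gate UMIs against 16 in the others, and had 511 CPM of Adgre4 against 1608 CPM. The summed level of the neutrophil marker list was 6708, 1542 and 658 CPM in naive, D11 and D14 gated cells, with 11 of 16 genes at 20 CPM, 0 genes without a UMI in any library, and S100a9 as the most abundant. Of the 11, 0 were over 2-fold higher and 9 lower at D14, with a median log2 ratio of -2.63, and 0 and 7 at D11, with -1.07. Without the cells with 20 neutrophil UMIs these were 8 and 1, with a median of 2.20, and 4 and 0, with 0.56. S100a9, which helps define those cells, is in the list. The filter thus limits the remaining levels, and no direction is read from them. The summed level moves with the condition, so list counts and gene levels that differ by over 1.5 times without those cells, which leaves 132, 212 and 599, are given both ways.

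**Figure D2:**
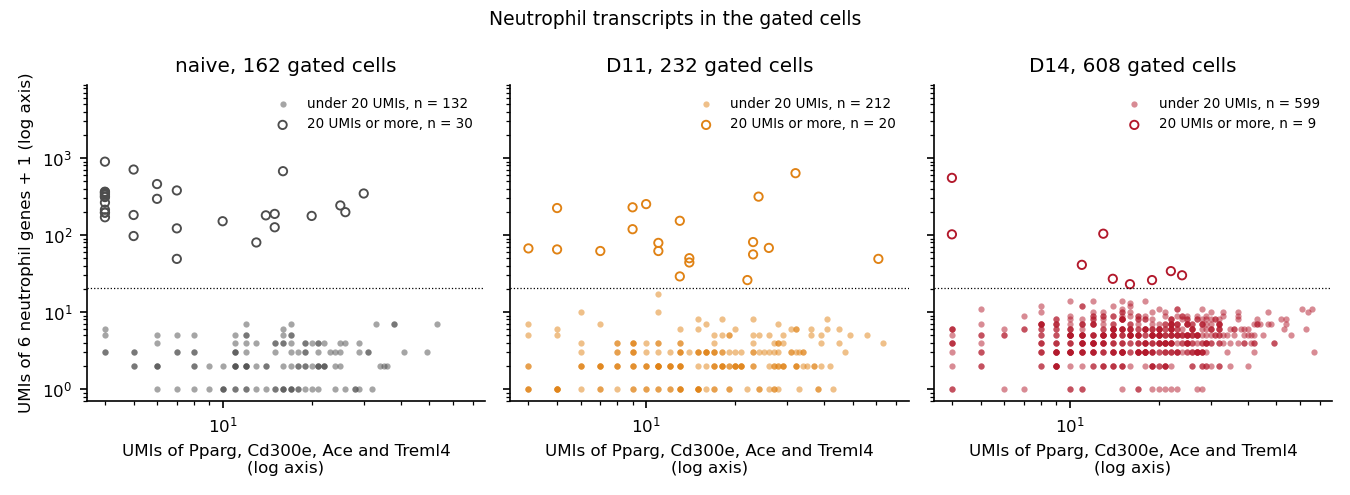
Each point is 1 gated cell, with its UMIs of the 4 gate genes (x, log axis) and its UMIs of 6 neutrophil genes plus 1 (y, log axis); open circles have 20 neutrophil UMIs or more. Of 162 naive cells 30 lie above the dotted line, many of them at 4 to 7 gate UMIs, against 9 of 608 at D14.

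Markers of other cells were present at very different levels. The classical monocyte list summed to 2744, 3382 and 2363 CPM, with Plac8 as its most abundant member (1349, 1955 and 1424 CPM), and 11 of its 16 genes reached 20 CPM. Of the T and NK cell list 3 of 16 genes did, with a sum of 451, 24.4 and 18.1 CPM, and 98.7% of the naive UMIs of Ccl5, Gzma and Nkg7 lay in 3 cells. Of the platelet list 0 of 12 genes reached 20 CPM, with sums of 27.4, 9.85 and 21.8 CPM and Gng11 as the most abundant at D14 (15.5 CPM). The B and leukemia cell list had 3 of 16 genes at 20 CPM and sums of 127, 188 and 136 CPM, led by Ighm (63.8, 76.5 and 20.6 CPM), while Ebf1 had 8.16, 57.7 and 37.9 CPM. In the dendritic cell list 4 of 16 genes reached 20 CPM, with sums of 289, 281 and 240 CPM, Tcf4 led (107.6, 91 and 129.7 CPM), and Cd209a had 0 UMIs in every library. The tissue macrophage list had 2 of 16 genes at 20 CPM, Spic and Slc40a1, with sums of 73.5, 39.4 and 77.5 CPM and 11, 12 and 7 genes without a UMI. Slc40a1 made up most of the naive sum, at 60.8 CPM, and had 0.883 CPM without the cells with neutrophil UMIs, so that 1 gene was over 2-fold higher and 1 lower at D14 with those cells, and 2 and 0 without them. The log2 interval of Slc40a1 was -1.115 to 6.96 without them, so its direction is not read.

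Red cell transcripts differed between libraries. Their list summed to 194 CPM in naive, 23612 CPM in D11 and 11492 CPM in D14 gated cells, led by Hbb-bs, with 6 genes at 20 CPM. Cells with over 1% hemoglobin UMIs numbered 0, 17 and 28, and held 94.7% of these UMIs at D11 and 95.8% at D14. Over all other kept barcodes hemoglobin took 2.54%, 39.6% and 13.3% of UMIs, and hemoglobin genes are not described further.

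The gated ncMonos made up 4.25% [3.63 to 4.94] of kept naive barcodes, 5.08% [4.46 to 5.76] of those at D11, and 13.8% [12.8 to 14.8] of those at D14. Relative to the naive share this was 1.20 times [0.97 to 1.47] for D11 and 3.24 times [2.72 to 3.88] for D14. These intervals cover counting error within 1 library each. Over kept barcodes with under 10% hemoglobin UMIs the shares were 4.36%, 7.07% and 18.2%, or 1.62 times [1.32 to 2] and 4.17 times [3.5 to 4.995] the naive share. When the cells with 20 neutrophil UMIs were left out, the D14 share was 3.92 times the naive one. With a gate minimum of 3 UMIs the D14 ratio was below 3.24, as described in the closing section. Per cell of the classical gate there were 1.34 [1.05 to 1.71] gated ncMonos among naive barcodes, 1.16 [0.956 to 1.41] for D11, and 6.08 [4.91 to 7.59] for D14.

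Across all genes, more were past 2-fold of the naive library at D14 than at D11, while the typical size of the difference was alike. Among the 2289 genes that reached 100 CPM on one side or the other, 93 were over 2-fold higher at D14 (4.06%) and 77 over 2-fold lower (3.36%). At D11, of 2195 genes, 20 were over 2-fold higher (0.911%) and 21 over 2-fold lower (0.957%). From D11 to D14, of 2192 genes, 42 were over 2-fold higher (1.92%) and 20 over 2-fold lower (0.912%). The median log2 ratio over all these genes was 0.03 at D14 and -0.06 at D11, and the median absolute log2 ratio was 0.25 at both. Over the 6668 genes with at least 20 CPM in 1 library that median was 0.26 at D14 and 0.27 at D11. The counts moved with the minimum level at both days. At D11 there were 9 higher and 6 lower with a minimum of 200 CPM, and 45 and 74 with 50 CPM, and the lower count was 44 with a gate minimum of 3 UMIs and 57 by the mean of per-cell CPM. The other counts are in the closing section.

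**Figure D3:**
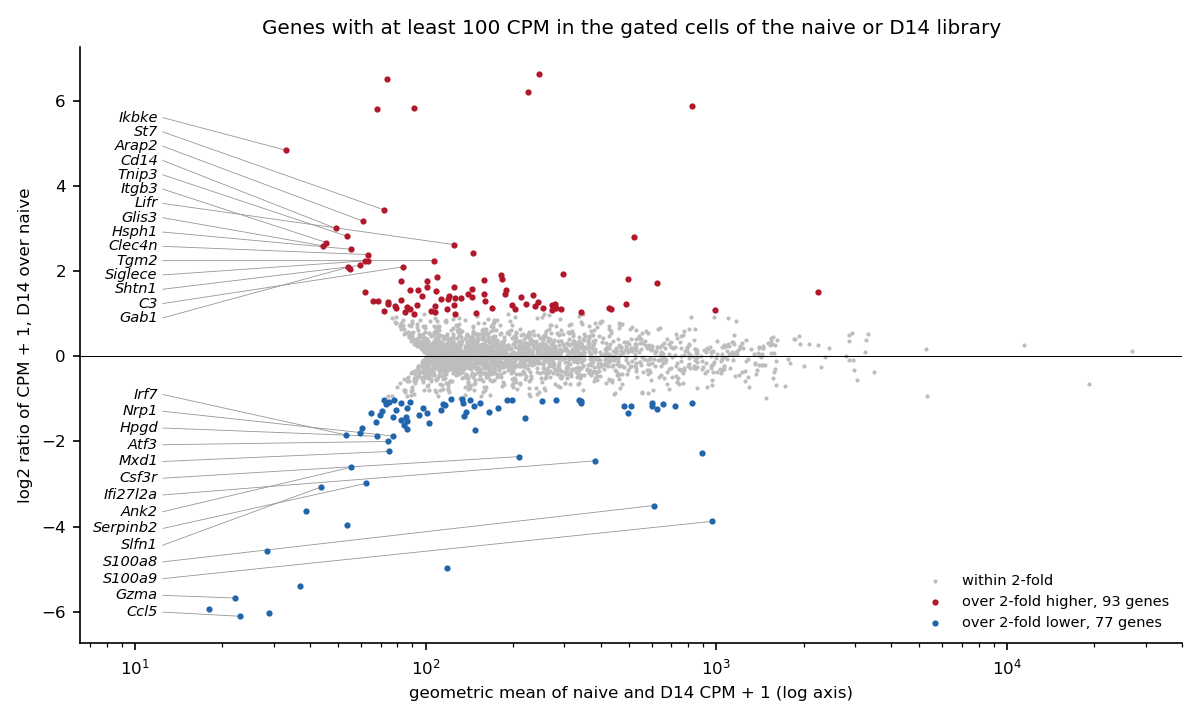
Log2 ratio of CPM plus 1, D14 over naive (y), against the geometric mean level (x, log axis) of 2289 genes in the gated cells; labels mark the genes named for the largest rise and fall, and 1 of these, hemoglobin genes and genes already described in the study carry no label. Ikbke stands highest among the labelled genes and Ccl5 lowest.

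Among the genes named for the largest rise by D14, Ikbke was first by ratio, before St7, Arap2, Cd14 and Tnip3, and the genes are given here by their known roles. Ikbke (chromosome 1 from 131254343 to 131279606 of GRCm38), which encodes the kinase IKKε of antiviral and NF-kB signalling, had 5.19 CPM in naive, 28.6 CPM in D11 and 176 CPM [165 to 186] in D14 gated cells. On the log2 scale the D11 level was 2.46 [1.33 to 3.84] and the D14 level 5.08 [4.03 to 6.40] above naive, the largest of the named rises. The named rises leave out hemoglobin genes and genes that the study names, such as Hspa1a and Hspa1b, whose ratios at D14 were higher. Ikbke UMIs were in 7 of 162 naive cells and in 428 of 608 D14 cells, at median depths of 7996.5 and 9435 UMIs per cell. At D14 its UMIs thus lay in most cells, but no background share of cells was set beside this count. T cells carried Ikbke in every library, at 119 CPM in the naive one and 97.8 CPM at D14.

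Tnip3 (chromosome 6 from 65525313 to 65634040), an A20-binding inhibitor of NF-kB, had 19.3, 52.5 and 142 CPM, a log2 fold difference of 1.44 [0.82 to 2.12] for D11 and 2.88 [2.32 to 3.50] for D14. Its partner Tnfaip3, the ubiquitin-editing enzyme A20, which was chosen after its values were seen, had 26.0, 68.0 and 110.4 CPM and a log2 fold difference of 2.09 [1.6 to 2.62] at D14. Cd14, the co-receptor for lipopolysaccharide, had 16.3, 31.4 and 138 CPM, with a log2 fold difference of 3.08 [2.47 to 3.76] at D14. For these 3 genes the D11 level lay between the naive and the D14 level. T cells had at most 3.45 CPM of Cd14 and at most 1.15 CPM of Tnip3 in the naive and D14 libraries.

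Receptors of the cell surface formed a second group. Lifr (chromosome 15 from 7090614 to 7197489), the receptor for leukemia inhibitory factor, had 49.7 CPM in naive, 50.2 CPM in D11 and 310.3 CPM [296.5 to 324] in D14 gated cells. Relative to naive its log2 difference was 0.01 [-0.44 to 0.48] for D11 and 2.64 [2.29 to 3.02] for D14, so the difference lay between D11 and D14. Clec4n, which encodes the fungal receptor dectin-2, had 26.7, 48.3 and 144 CPM, and a log2 fold difference of 2.43 [1.95 to 2.95]. Siglece, an inhibitory receptor for sialic acids, had 27.4, 40.3 and 133 CPM, with a log2 fold difference of 2.28 [1.80 to 2.79]. The naive level of Siglece was 7.95 CPM and the log2 ratio 4.08 when the cells with neutrophil UMIs were left out. The integrin chain Itgb3 had 17.1, 40.3 and 113.8 CPM, and a log2 fold difference of 2.74 [2.14 to 3.40].

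Among enzymes, scaffolds and secreted proteins, Tgm2 (chromosome 2 from 158116402 to 158146436), the cross-linking enzyme transglutaminase 2, had 48.2, 118 and 232 CPM. Relative to naive its log2 difference was 1.29 [0.90 to 1.71] for D11 and 2.27 [1.91 to 2.65] for D14. C3, the central complement protein, had 39.3, 67.1 and 171 CPM, a log2 fold difference of 2.12 [1.72 to 2.55]. Arap2, a GTPase-activating protein of the actin and endosome system, had 19.3, 26.7 and 182 CPM, a log2 ratio of 3.24 [2.68 to 3.86] at D14. The docking protein Gab1 had 25.2, 28.1 and 110.4 CPM. Both Arap2 and Gab1 had D11 intervals that included 0. The remaining named rises were St7 (20.8, 47.8 and 235.0 CPM), the zinc finger factor Glis3 (17.1, 36.1 and 107.8 CPM), Shtn1 (27.4, 54.9 and 123.5 CPM) and the chaperone Hsph1. All 15 named rises also had log2 ratios over 2 at D14 without the cells with neutrophil UMIs.

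The genes named for the largest fall were of several kinds, and for part of them the naive level lay in few cells. S100a9 and S100a8, the calprotectin subunits of neutrophils, had 3707, 778 and 251 CPM and 2057, 310 and 180 CPM. Without the cells with 20 neutrophil UMIs S100a9 had 39.7, 58.9 and 174 CPM and S100a8 25.6, 42.1 and 137 CPM, so the direction of the ratio turned. Both genes, like Csf3r, are among those that define the cells left out. The filter itself thus limits their remaining levels, and no direction is read from these. T cells had 438 and 531 CPM of S100a9 in the naive and D14 libraries, above those remaining levels. Csf3r, the receptor for G-CSF, went from 474 to 246 and 91.7 CPM, a log2 fold difference of -2.37, and had 134, 108 and 81.3 CPM without those cells, a log2 ratio of -0.72. Mxd1, a repressor that pairs with Max, had 162, 83.5 and 33.5 CPM, and without them 13.2, 21.0 and 29.7 CPM, so that its direction turned, to a log2 fold difference of 1.16. Slfn1 had 125, 47.4 and 14.0 CPM, or 74.2, 29.4 and 12.6 CPM without them, and its log2 ratio was -3.16 with them and -2.55 without.

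Ccl5 and Gzma, which cytotoxic lymphocytes make, had 189.9 and 157 CPM in the naive gated cells and 1.77 and 2.10 CPM at D14. Ccl5 had 99.8 CPM in the naive cells without neutrophil UMIs. As 3 cells held nearly all of the naive UMIs, these falls describe those cells.

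For the other named falls the naive UMIs were spread over 38 to 132 cells and the ratio at D14 was past 2-fold lower without the cells with neutrophil UMIs too. Serpinb2, plasminogen activator inhibitor 2, had 175, 52.5 and 21.3 CPM, a log2 fold difference of -1.74 [-2.07 to -1.41] for D11 and -3.04 [-3.36 to -2.73] for D14. Nrp1 (chromosome 8 from 128358604 to 128503363), a co-receptor for semaphorins and VEGF, had 147, 62.4 and 39.3 CPM, a log2 ratio of -1.90 [-2.18 to -1.62] at D14. Hpgd, which inactivates prostaglandins, had 129, 124 and 34.3 CPM, a log2 ratio of -0.05 [-0.34 to 0.23] for D11 and -1.91 [-2.21 to -1.61] for D14. Atf3, a stress-response factor, had 148, 92.9 and 36.1 CPM, and Ank2, a membrane adaptor, 136, 67.5 and 21.4 CPM. Irf7 and Ifi27l2a belong to the interferon genes described below.

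A few genes differed at D11 and were back within 1.5-fold of naive at D14. Tex14 had 54.2, 127 and 61.9 CPM, a log2 fold difference of 1.23 [0.85 to 1.62] for D11 and 0.19 [-0.17 to 0.57] for D14. Zbp1, a sensor of nucleic acids, had 58.6, 118 and 77.8 CPM. The splicing factor Hnrnpa1 had 80.9, 166.5 and 119.9 CPM, Eno3, a muscle-type enolase that marks these monocytes, had 223, 420 and 325 CPM, and Rnaset2a had 57.1, 103.7 and 75.6 CPM. In the other direction the long noncoding RNA Morrbid had 128, 39.4 and 103 CPM, a log2 ratio of -1.70 [-2.10 to -1.32] at D11. Plxdc2 (139, 69.4 and 124 CPM), Glipr2 (116.5, 55.8 and 89.3 CPM), AC149090.1 (145, 76.5 and 119.6 CPM) and Slc15a3 (116.5, 62.9 and 88.6 CPM) shared that shape. When the cells with neutrophil UMIs were left out, Morrbid had 79.5, 28.4 and 100.5 CPM and Glipr2 75.04, 47.3 and 89.2 CPM.

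Gene lists were counted over members with at least 20 CPM in 1 of the 3 libraries. Over all 6668 genes at that level, 209 were over 2-fold higher at D14 (3.13%) and 342 over 2-fold lower (5.13%). At D11 these were 113 (1.69%) and 215 (3.22%). Without the cells with neutrophil UMIs, 261 genes were over 2-fold higher at D14 (3.91%) and 268 over 2-fold lower (4.02%). The median log2 ratio over the 6668 genes was 0.00 at D14 and -0.04 at D11. These shares are the background against which the counts of each list are given. The lists were chosen with earlier results of these data known, so a count above these shares is a description and no independent support. Over all genes at D11 no such count was made without the cells with neutrophil UMIs. List counts at D11 in that setting therefore have no background share beside them. Members described below beyond the 2 highest and 2 lowest of a list that reached 100 CPM, and beyond the identity genes, were chosen after their values were seen.

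**Figure D4:**
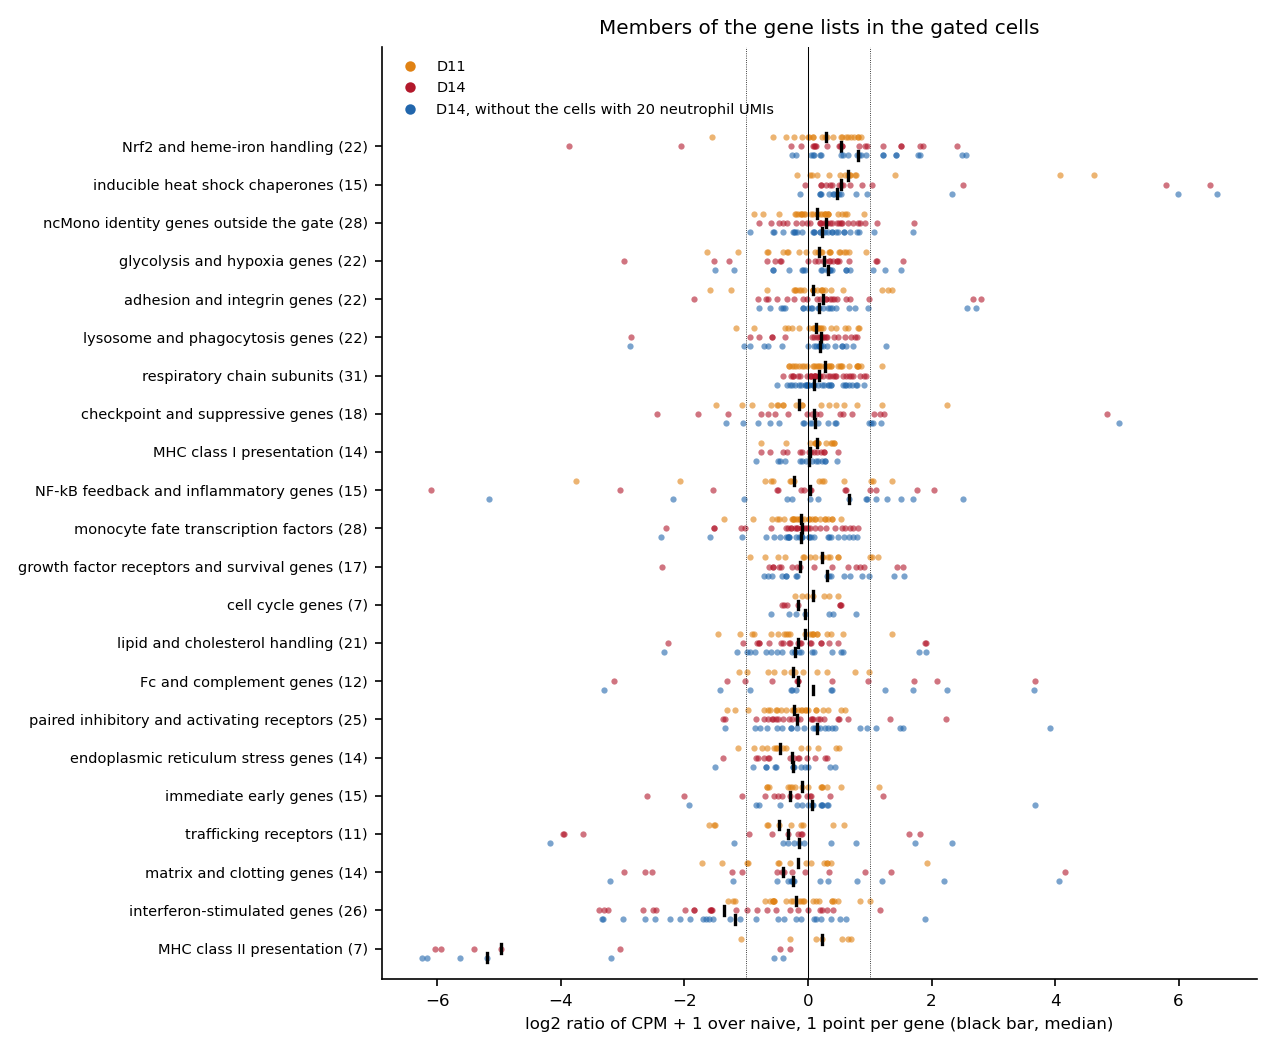
Log2 ratio of CPM plus 1 over naive for each list member with at least 20 CPM in 1 library (points) and the list's median (black bar), at D11, at D14, and at D14 without the cells that held 20 neutrophil UMIs; dotted lines mark 2-fold and numbers in brackets the members. Of the 22 lists plotted, which leave out markers of other cells, MHC class II and interferon-stimulated genes lie lowest at D14, with medians of -4.96 and -1.36, and the Nrf2 and heme-iron list and the heat shock list highest, at 0.53 each.

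Genes of the Nrf2 response and of heme and iron handling were higher at D14 for 18 of 22 members, with 6 over 2-fold higher and 2 over 2-fold lower, and a median log2 fold difference of 0.53. At D11 the median was 0.29, with 0 members over 2-fold higher and 1 lower. Hmox1 (chromosome 8 from 75093621 to 75100589), which breaks down heme, had 56.4, 69.9 and 207 CPM, a log2 fold difference of 1.87 [1.54 to 2.23]. Fth1, the heavy chain of the iron store ferritin, had 1326, 2145 and 3773 CPM, and Txn1, thioredoxin, 263, 411 and 929 CPM, or 165, 390.5 and 936 CPM without the cells with neutrophil UMIs. Spic, a factor of heme-recycling macrophages, had 9.64, 18.3 and 55.8 CPM. The regulator Nfe2l2 itself had 178, 300.2 and 413 CPM, and thioredoxin reductase Txnrd1 had 35.6, 63.3 and 103 CPM.

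The members that went the other way were Slc40a1, the iron exporter ferroportin (60.8, 20.2 and 3.22 CPM), and Slc7a11, a cystine transporter (63.8, 42.7 and 14.7 CPM). Without the cells with neutrophil UMIs the ratios of both turned, with naive levels of 0.883 and 5.30 CPM and D14 levels of 2.62 and 13.6 CPM. The log2 interval of Slc40a1 at D14 was then -1.115 to 6.96, so no direction is read for it. In that setting 9 of the 22 members were over 2-fold higher, Slc40a1 and Slc7a11 among them, 0 were lower, and the median was 0.81. At D11 4 were over 2-fold higher and 0 lower, with a median of 0.32.

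Heat shock chaperones were higher for 14 of 15 members at each day, counted separately. At D11 3 were over 2-fold higher, with a median log2 fold difference of 0.65, and at D14 4 were, with a median of 0.53 and 0 over 2-fold lower, or 3 with a median of 0.47 without the cells with neutrophil UMIs. Hsph1, a nucleotide exchange factor for Hsp70, had 22.3, 60.5 and 131 CPM, a log2 fold difference of 1.44 [0.86 to 2.07] for D11 and 2.56 [2.04 to 3.14] for D14. Hspa8, the constitutive Hsp70 and the most abundant of the list, had 645, 982 and 916 CPM. The inducible Hsp70 genes Hspa1a and Hspa1b were the highest of the list by ratio, at 8.16, 154.8 and 507 CPM and at 6.68, 189 and 701 CPM. The 150 bases before the starts of the last pair are shown for the heat shock element that they hold. They are from RefSeq (GRCm38.p6, minus strand), 149 of 150 bases are identical, and capitals mark GAANNTTC, a heat shock element core that begins 104 bases before each start.
Hspa1a, chr17:34972157-34972306: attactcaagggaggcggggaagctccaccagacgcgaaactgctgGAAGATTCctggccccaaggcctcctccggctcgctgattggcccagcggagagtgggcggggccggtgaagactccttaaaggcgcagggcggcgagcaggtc
Hspa1b, chr17:34959239-34959388: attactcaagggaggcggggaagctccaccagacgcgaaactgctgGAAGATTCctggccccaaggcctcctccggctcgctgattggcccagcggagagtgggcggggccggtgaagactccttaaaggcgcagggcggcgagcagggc

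Hspa1a and Hspa1b are known as near-identical copies, among which reads may be split in counting. GAANNTTC, searched on both strands, was in 5 of 17 windows of 250 bases before the starts of 12 chaperone genes (29.4%) and in 6.69% of 32817 windows of all RefSeq promoters. The genes with it were Dnaja1, Hspa1a, Hspa1b, Hspd1 and Hspe1, so the near-identical Hspa1a and Hspa1b were counted separately and the windows are not independent. TTCNNGAA, which can overlap GAANNTTC, was in 4 of 17 (23.5%) and in 7.16% of all. For the Nrf2 and heme-iron genes, TGACNNNGC was in 6 of 22 windows (27.3%) of 16 genes and in 10.2% of all windows. TGANTCA, an AP-1 site, was in 0 of 13 windows of the immediate early genes and in 6.75% of all, and the NF-kB motif was in 2 of 15 windows (13.3%) of the NF-kB and inflammatory genes and in 0.357% of all. A match is a description of letters and no evidence of binding.

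Interferon-stimulated genes were lower at D14. Of 26 members 14 were over 2-fold lower and 1 was over 2-fold higher at D14, with a median log2 fold difference of -1.36, and at D11 3 were lower and 1 higher, with a median of -0.20. Without the cells with neutrophil UMIs the count at D14 was again 14 lower and 1 higher, with a median of -1.18, and at D11 3 lower and 2 higher. Ifi27l2a had 893, 741 and 162 CPM, a log2 fold difference of -0.27 [-0.38 to -0.16] for D11 and -2.46 [-2.59 to -2.34] for D14. Irf7, the factor that amplifies type I interferon responses, had 100.2, 65.2 and 27.1 CPM, a log2 ratio of -1.89 [-2.22 to -1.55] at D14.

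Further members had still lower levels. Isg15, a ubiquitin-like protein, had 63.1, 53 and 9.03 CPM, or 40.6, 21.6 and 7.87 CPM without the cells with neutrophil UMIs, and Rtp4 78.6, 52.5 and 7.09 CPM. Ifi44 had 88.3, 59.1 and 14.7 CPM, Usp18, which removes Isg15 from proteins, 23, 9.38 and 1.29 CPM (22.1, 4.73 and 1.31 CPM without them), and the 2′-5′ oligoadenylate synthetase-like gene Oasl2 23.7, 9.85 and 1.61 CPM. The antiviral membrane protein Ifitm3, the most abundant member, had 2088, 1987 and 1052 CPM. Not all members were lower: Irf1 had 165, 221 and 205.5 CPM, and Gbp2, the 1 member over 2-fold higher, 23.7, 31.4 and 54.8 CPM, or 14.1, 23.1 and 55.1 CPM without those cells. In the classical gate Ifi27l2a, Irf7, Isg15 and Rtp4 were likewise lower at D14, for example Isg15 with 134.9, 87.8 and 27.2 CPM.

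The 150 bases before the start of Isg15 are shown as an example of a repeat found before some of these genes (RefSeq, GRCm38.p6, minus strand). Capitals mark 3 overlapping matches of GAAA repeated after a spacer of 2 bases, the core of an interferon response element, which begin 78, 72 and 66 bases before the start.
Isg15, chr4:156200819-156200968: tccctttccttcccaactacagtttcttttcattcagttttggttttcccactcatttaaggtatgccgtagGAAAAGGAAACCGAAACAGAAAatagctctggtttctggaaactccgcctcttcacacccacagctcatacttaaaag

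This repeat, searched on both strands, was in 10 of 21 windows (47.6%) of 19 interferon-stimulated genes and in 2.97% of all windows. Among these 10 genes were Isg15, Oas1a, Ifi207 and Ifi211, which were lower at D14, and Gbp2 and Stat2, which had 54.8 CPM and 36.9 CPM at D14 against 23.7 CPM and 41.6 CPM in the naive library.

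MHC class II genes, which present peptides to CD4 T cells, were lower at D14 as well. Of 7 members 5 were over 2-fold lower at D14 and 0 higher, with a median log2 fold difference of -4.96, while the median at D11 was 0.22, or -0.0060 without the cells with neutrophil UMIs. H2-Aa (chromosome 17 from 34282744 to 34287823) had 234 CPM in naive, 382 CPM in D11 and 2.58 CPM [1.47 to 4.19] in D14 gated cells, a log2 fold difference of 0.71 [0.52 to 0.90] and then -6.51 [-7.33 to -5.78]. In the naive library 301 of its UMIs lay in 11 cells and 15 in the others, and at D11 801 lay in 45 cells and 14 in the others. The intervals take UMIs as independent and are thus too narrow here, so no D11 rise is read from them. The invariant chain Cd74 had 660, 768 and 20.1 CPM, and H2-Eb1 139.5, 218 and 1.29 CPM. The transactivator Ciita had 21 UMIs in naive cells, 31 in D11 cells and 1 in D14 cells. In the classical gate H2-Aa had 224 CPM in the naive library, and was lower already at D11, at 27.2 CPM, and at D14, at 14.2 CPM. MHC class I genes had a median of 0.03 at D14 and 0.15 at D11, with 0 of 14 members past 2-fold at either day.

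The class II transcripts lay in a minority of the gated cells. At least 10 UMIs of H2-Aa, H2-Ab1, H2-Eb1 and Cd74 were in 11 of the 162 naive members (6.79% [3.44 to 11.8]), 45 of 232 D11 members (19.4% [14.5 to 25.1]) and 3 of 608 D14 cells (0.493% [0.102 to 1.44]), and these held 93.7%, 95.5% and 38.8% of those UMIs. After each cell was thinned to 3000 UMIs, which left out 5, 9 and 7 shallower cells, at least 3 UMIs were in 9.55% [5.45 to 15.3], 19.7% [14.7 to 25.6] and 0.499% [0.103 to 1.45] of cells, and in 0%, 0.755% and 0% of T cells. These intervals cover the counting of cells within 1 library per condition, so they cannot tell a condition from a library.

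These cells were deeper than the other gated cells, with a median of 12890 against 7688 UMIs in the naive library, 11736 against 7649 UMIs at D11 and 15551 against 9402 UMIs at D14. When the barcodes that Scrublet marked as doublets were left out, the median log2 ratio of the class II list over naive was 0.05 for D11, and it stayed over 2-fold lower for D14. The part of mixed barcodes in the shares of class II cells was not tested. Identity genes that the gate did not use were at similar levels in these cells for part of the list and lower for others. In the 45 D11 cells Adgre4 had 1417 CPM against 1315 CPM in the other 187 gated cells, Csf1r 582 against 652 CPM, and Cx3cr1 301 against 344 CPM. In the 11 naive cells Adgre4 had 1073 against 1473 CPM and Csf1r 489 against 506 CPM. Nr4a1 had 299 against 366 CPM in the naive library and 326 against 474 CPM at D11. Adgre1 had 29.2 against 216 CPM in the naive library, and Dusp16, a phosphatase of MAP kinases, 404 against 913 CPM at D11. Lower levels in them were found in both libraries for Pecam1, a junction protein (29.2 against 214.7 CPM in the naive library, 182 against 615 CPM at D11), for Lpl, lipoprotein lipase (14.6 against 101.6 CPM, 13.1 against 126 CPM), and for Fcgr4 (109.5 against 370 CPM, 208 against 436 CPM). Ciita was higher in them in both, at 117 against 4.13 CPM and 56.1 against 0.626 CPM. Of B cell genes, Cd79b had 0 UMIs in the 11 naive cells and 11.2 against 11.9 CPM at D11. Ebf1 had 0 UMIs in the naive ones and 215 against 5.01 CPM at D11, where its 115 UMIs lay in 4 of the 45 cells. Pax5 had 15 against 3.13 CPM and Blnk 11.2 against 1.25 CPM at D11, from 8 UMIs in 4 and 6 UMIs in 2 of the 45 cells. Batf3, a factor of dendritic cells, had 131 against 18.2 CPM in the naive library and 37.4 against 11.3 CPM at D11. Other dendritic cell genes were not alike in this. Zbtb46 had 0 against 11.6 CPM in the naive library and 5.62 against 2.50 CPM at D11. Itgax had 73.0 against 62.8 CPM and 146 against 163 CPM. Cd209a and Xcr1 had 0 UMIs in these cells in both libraries, and Flt3 had 0 in the naive ones. Ccr2 had 504 against 177 CPM in the naive library and 114 against 58.2 CPM at D11. Ly6c2 had 117 against 32.2 CPM in the naive library and 67.4 against 72.0 CPM at D11. Flt3 had 10 UMIs in 1 of the D11 cells and 0 in the other gated D11 cells, while 7 of the 45 D11 cells also had 20 neutrophil UMIs. These genes come from the cells that were split, so the values are a description.

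Inflammatory genes and NF-kB feedback genes went both ways. Of 15 members 4 were over 2-fold higher and 3 over 2-fold lower at D14, with a median log2 fold difference of 0.03, and 3 and 2 at D11, with a median of -0.23. Without the cells with neutrophil UMIs 5 were higher and 3 lower at D14 and the median was 0.67, and 2 and 2 at D11 with a median of 0.25. Nfkbia, the inhibitor IκBα, had 295, 612 and 635 CPM, so most of its difference was present at D11, and Sod2, the mitochondrial superoxide dismutase, had 54.2, 111 and 186 CPM. Nlrp3, the inflammasome sensor, had 114, 69.9 and 38.5 CPM, and Il1b, the most abundant member, 632, 519 and 645 CPM. In the cells without neutrophil UMIs Il1b had 224, 352 and 642 CPM, a linear ratio of 2.86 at D14. Immediate early genes had 1 of 15 members over 2-fold higher and 3 lower at D14, with a median of -0.30, and 1 higher at D11. That median was 0.06 without the same cells, with 1 higher and 2 lower, and 2 were higher at D11. Fos had 363, 229.8 and 224 CPM, or 222, 194.5 and 223 CPM without them, and Jun 332, 389 and 427 CPM.

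Fc receptors and complement genes diverged. Of 12 members 4 were over 2-fold higher at D14 and 3 lower, and at D11 1 in each direction. These were 4 and 2, and 1 and 2, without the cells with neutrophil UMIs. Fcgr4, the activating receptor of ncMonos, had 343.5, 378.5 and 1125 CPM, a log2 fold difference of 0.14 [-0.03 to 0.31] for D11 and 1.71 [1.58 to 1.85] for D14. The high-affinity receptor Fcgr1 had 49, 22 and 4.67 CPM, and Fcgr3 had 283, 193 and 138 CPM. Complement factor B, Cfb, had 4.45, 9.85 and 68.5 CPM. Of the trafficking receptors 2 of 11 were over 2-fold higher at D14 and 3 lower, and the formyl peptide receptors Fpr2 (70.5, 105.5 and 220 CPM) and Fpr1 (24.5, 15 and 88.3 CPM) were those higher. At D11 0 were higher and 3 lower, and without the cells with neutrophil UMIs 2 and 2 at D14 and 0 and 1 at D11. Ccr1, a chemokine receptor, had 69, 22.0 and 3.55 CPM with those cells and 2.65, 2.63 and 2.30 CPM without them, so that its lower level at D14 lay with them. Cx3cr1 had 359, 333 and 336 CPM.

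Paired inhibitory and activating receptors had 2 of 25 members over 2-fold higher and 2 lower at D14, beside 3.13% and 5.13% of all genes. At D11 0 were higher and 3 lower. Counts this small are not read as a result about the list. Leaving out the cells with neutrophil UMIs gave 5 higher and 1 lower at D14, with a median of 0.14 in place of -0.18, and 1 higher and 0 lower at D11. The C-type lectin Clec4e, or Mincle, had 70.5, 83.5 and 179 CPM, a log2 fold difference of 1.34. Adhesion genes had 3 of 22 over 2-fold higher and 1 lower at D14, and 3 and 2 at D11, against 2 and 0, and 3 and 1, without those cells. Itgax, which encodes CD11c, had 63.8, 158.5 and 128 CPM, so that its highest level was at D11, and Itga4 had 1629, 1563 and 2262 CPM.

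Growth factor receptors and survival genes had 2 of 17 over 2-fold higher at D14 and 1 lower, and 3 and 0 at D11, against 3 and 0, and 2 and 0, without the cells with neutrophil UMIs. The higher ones were Bcl2a1a (83.8, 174 and 230.5 CPM) and Bcl2a1b (109.8, 242 and 322 CPM), which are near-identical copies among which reads may be split, and the lower one was Csf3r. Bcl2 had 303, 425 and 541 CPM, a log2 fold difference of 0.49 [0.32 to 0.66] and then 0.84 [0.69 to 0.99]. Csf1r had a log2 fold difference of 0.33 [0.20 to 0.47] and then 0.64 [0.53 to 0.76]. Of 18 checkpoint and suppressive genes 4 were over 2-fold higher and 3 lower at D14, and 2 and 2 at D11, against 4 and 2, and 1 and 1, without those cells. Cblb, a ubiquitin ligase that restrains receptor signalling, had 683, 1021 and 1441 CPM, a linear ratio of 2.11 at D14 that was 1.98 without them. The ligand PD-L1, Cd274, had 157, 137 and 233 CPM, and Pdcd1lg2 25.2, 23.5 and 60.3 CPM.

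Few lipid genes were past 2-fold. Of 21 members 2 were over 2-fold higher and 2 lower at D14, beside 3.13% and 5.13% of all genes. At D11 these were 1 and 2, beside 1.69% and 3.22%. Counts this small are not read as a result about the list. The count at D14 was 2 and 3 without the cells with neutrophil UMIs. Apoe, the lipid-carrying apolipoprotein and the most abundant member, had 1954, 714 and 406 CPM. Lpl had 92.7, 98.0 and 352 CPM, a log2 fold difference of 0.08 [-0.25 to 0.41] for D11 and 1.92 [1.66 to 2.20] for D14. Plin2, which coats lipid droplets, had 493, 262 and 237 CPM, a log2 ratio of -0.91 [-1.08 to -0.75] and then -1.05 [-1.19 to -0.92]. The fatty acid receptor Cd36 had 793, 431 and 459 CPM, a log2 ratio of -0.88 [-1.01 to -0.75] and then -0.79 [-0.89 to -0.69]. For Plin2 and Cd36 the D11 level was thus already near that of D14, which was not so for Lpl. In the lysosome and phagocytosis list 0 of 22 were over 2-fold higher and 1 lower at D14, likewise 0 and 1 at D11, against 1 and 2 at D14 and 0 and 2 at D11 without the cells with neutrophil UMIs. The lower one at D14 was the scavenger receptor Msr1 with 94.2, 41.3 and 12.1 CPM, while Lyz2, lysozyme, had 7343, 6120 and 3813 CPM.

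Among metabolic genes, glycolysis and hypoxia genes had 3 of 22 over 2-fold higher and 3 lower at D14, and 0 and 2 at D11, or 3 and 2 at D14 and 0 and 1 at D11 without the cells with neutrophil UMIs. The phosphoglycerate mutase Pgam1 (63.1, 122 and 184 CPM), Aldoa (137, 219 and 297 CPM) and Pfkfb3 (59.4, 91.5 and 128 CPM) were those higher, and Slc2a3, Hk2 and Pfkfb4 those lower, the first of which had 49 CPM in naive and 5.32 CPM in D14 gated cells, and 3.53 and 4.76 CPM without the cells with neutrophil UMIs. Respiratory chain subunits had 24 of 31 members higher at D14 and 0 past 2-fold, with a median of 0.18, and 22 higher with 1 past 2-fold at D11, with 0.28. Endoplasmic reticulum stress genes had a median of -0.26 at D14 and -0.45 at D11, with 1 of 14 over 2-fold lower at each day. In the matrix and clotting list 2 of 14 were over 2-fold higher and 5 lower at D14, with a median of -0.40, and 1 and 3 at D11. When the cells with neutrophil UMIs were left out, 3 were higher and 2 lower at D14, with a median of -0.24, and 3 and 1 at D11. The membrane metalloprotease Mmp14, with 1 UMI in naive, 12 in D11 and 187 in D14 cells, had a linear ratio at D14 of 40.6, and its log2 interval began at 2.85. Its levels were 0.742, 5.63 and 30.1 CPM, or 0.883, 4.21 and 30.3 CPM without the same cells. Cell cycle genes had 0 of 7 members past 2-fold at either day.

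Transcription factors of monocyte fate were mostly level. Of 28 members 0 were over 2-fold higher and 5 lower at D14, with a median of -0.10, and 3 were lower without the cells with neutrophil UMIs. At D11 0 were higher and 1 was lower, or 0 without those cells. Nr4a1, on which these cells depend, had 359, 437 and 526 CPM, and Cebpb 1343, 1946 and 1824 CPM. Maf had 44.5, 23.5 and 8.22 CPM. Klf2, a factor of quiescence and flow sensing, had 901, 805 and 592 CPM. The ncMono identity genes as a group had 20 of 28 members higher at D14, 2 over 2-fold higher and 0 lower, with a median of 0.30. At D11 0 were past 2-fold, with a median of 0.15, or 1 lower without the cells with neutrophil UMIs. The 2 were Fcgr4 and Adgre1, an adhesion receptor, with 197, 305 and 430 CPM.

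The same genes were set beside the classical monocyte gate of 121, 200 and 100 cells. The cells of that gate differed between libraries, with a median depth of 13180, 13541 and 21567.5 UMIs. Its median log2 ratio at D14 was 3.49 over 21 cell cycle genes and 2.405 over 8 neutrophil markers. The ratios in it may thus not compare like cells, which was not tested. In the classical gate Ikbke had 18.0, 23.1 and 50.8 CPM. Its log2 fold difference at D14 was 1.5 [0.91 to 2.13] against 5.08 [4.03 to 6.40] in the gated ncMonos, with intervals for counting error only. Lifr had 46.8, 28.3 and 44.1 CPM in the classical gate, a log2 ratio of -0.09 [-0.53 to 0.36]. Tgm2 had 0.600, 1.47 and 4.90 CPM, Arap2 7.80, 5.88 and 4.01 CPM, and Hmox1 44.4, 34.2 and 36.5 CPM, each below the ncMonos at D14. Fth1 had 1534, 1725 and 1673 CPM, so that at D14 it was higher in ncMonos while the naive levels were 1534 and 1326 CPM. Clec4n was lower at D14 than in the naive library in the classical gate, at 33.6, 4.04 and 12.9 CPM. Glis3 and Shtn1 were higher at D14 in both gates, the latter at 25.8, 43.0 and 155 CPM in the classical one.

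**Figure D5:**
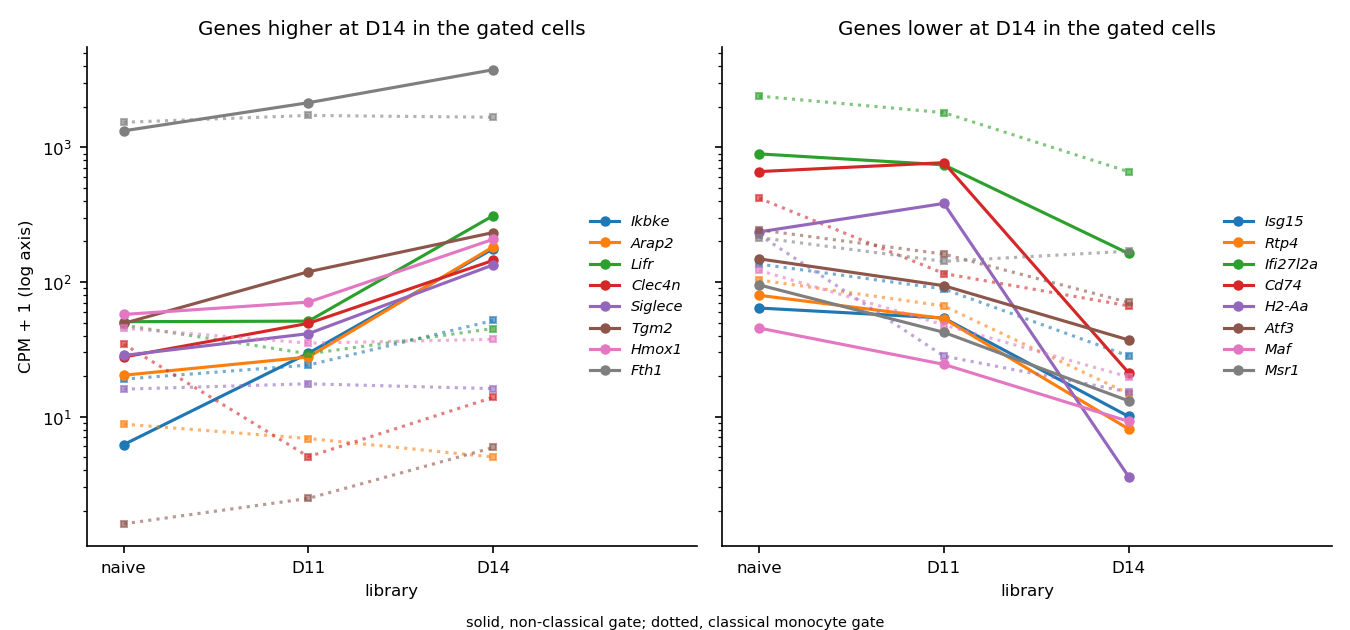
Level in CPM plus 1 (log axis) of 8 genes that were higher (left) and 8 that were lower at D14 (right) in the gated ncMonos (solid), with the same genes in the classical monocyte gate (dotted); these examples were chosen after their values were seen. Ikbke and Lifr reach 176 and 310.3 CPM in ncMonos and 50.8 and 44.1 CPM in classical monocytes at D14, whereas the lines of Isg15 and Rtp4 go down in both.

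The share of cells with a transcript is given for 3 of the named genes that were rare in T cells, chosen after their values were seen. At 3000 UMIs per cell, Lifr was found in 12.1%, 10.8% and 50.4% of naive, D11 and D14 gated cells and in 0%, 0.377% and 0% of T cells. Tgm2 was found in 12.1%, 30.0% and 46.6%, against 0%, 1.51% and 0.980% of T cells. Serpinb2 was found in 33.8%, 9.42% and 5.49%, with 0% of T cells in each library. At least 1 UMI of Ly6c2, Ccr2 or Fn1, genes of classical monocytes, was in 35.7%, 19.7% and 9.98% of gated cells, and in 8.67%, 29.1% and 21.6% of T cells, but T cells had 43.8, 177 and 122 CPM of Ccr2 and so give no background for these genes. The Ccr2 level in the gated cells was 210.0, 72.2 and 12.6 CPM, against at most 2.34 CPM in neutrophils. At least 1 UMI of Mki67, Top2a, Cdk1 or Ccnb1 was in 6.37%, 5.83% and 5.99% of gated cells, and in 6.44%, 14.0% and 13.7% of T cells, which can themselves divide and so are no background for these genes.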

How the data were processed

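PB immune cells of 1 naive, 1 D11 and 1 D14 library were measured with 10x Genomics 3′ v3 chemistry. The values are raw UMI counts in the filtered matrices that the authors made with Cell Ranger and deposited. The submitters' processing notes give Cell Ranger 7.1.0 and mm10, and the file headers give 5.0.1. Of 32285 identifiers 32235 are in GENCODE vM21 (GRCm38), and 38 symbols that name several identifiers could not be named by the rule below. The matrices held 5386, 8536 and 9337 barcodes with 30362408, 57640396 and 65861863 UMIs.

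Counts were summed over gated cells and given as CPM, and log2 ratios of list medians and rankings used 1 CPM added. No test was run and no p-value given, since each condition had 1 library, and a gene was counted as called when past 2-fold. Gates for classical monocytes (at least 4 UMIs of F13a1 and Vcan), Retnlg neutrophils and T cells followed the same form. No clusters were made, and doublets were treated as an alternative only (Scrublet through scanpy 1.11.5, which marked 116, 167 and 156 kept barcodes, of which 10, 17 and 16 were gated). Other tools were Python 3.11.15, scipy 1.17.1, edgeR 4.0.16 for TMM factors, and R 4.3.3.

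Named genes were the 15 largest rises and 15 largest falls from naive to D14 that went the same way by D11. They came from genes that reached 100 CPM, leaving out the 51 genes the study names, the gate genes, and ribosomal, mitochondrial and hemoglobin genes. To these came 5 rises and 5 falls at D11 that were back within 1.5-fold at D14, the 2 highest and 2 lowest members of each list that reached 100 CPM, the most abundant gene of each list of other cells, the gate genes, and the identity genes. There were 30 lists with 614 genes, of which Mx1, Clec7a and Ahsp matched no feature symbol. The members and lists were chosen with earlier results of these data known. The calculations were checked on simulated counts. The alternatives were other gates, filters, scalings, level minimums and 10 CPM added, and, added after seeing the data, a gate of 8 UMIs and leaving out gated cells with 20 neutrophil UMIs. Results for a few genes are not reported here.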

Additional observations from a re-analysis of the deposited data

Results flagged for a closer look

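For 4 genes the ratio of D14 to naive was past 2-fold in opposite directions in the gated ncMonos and in the classical monocyte gate, which drew attention to them, and the difference was not tested because there was 1 library per condition. The cells of the classical gate also differed between libraries, as given above. Clec4n had a ratio of 5.38 in the gated ncMonos and 0.385 in the classical gate. S100a9 had 0.0678 and 5.47, and S100a8 had 0.0876 and 13.8. Without the gated cells with 20 neutrophil UMIs the log2 ratios of S100a9 and S100a8 in ncMonos were 2.13 and 2.42. Both genes are among those that define the cells left out. The filter itself thus limits their remaining levels, and no direction in ncMonos is read from these ratios. The remaining S100a9 levels were also below those of T cells, as given above. Gng11, a platelet marker, had ratios of 5.21 and 0.396, with 4 UMIs in the naive gated cells and 0 in them without the cells with 20 neutrophil UMIs.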

How the results depend on the processing

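No paired analysis was possible because each group has 1 library, and for the same reason no replicate could be left out. The ratio of the gate share to naive, 1.20 at D11 and 3.24 at D14, was 1.57 and 4.18 under a stricter filter (500 genes, 5% mitochondrial UMIs), and 1.62 and 4.17 over barcodes under 10% hemoglobin UMIs. At D14 it was 4.03 with a gate minimum of 8 UMIs and 3.92 without the gated cells with 20 neutrophil UMIs. With barcodes thinned to 2000 UMIs and the gate minimum lowered to 2 UMIs together, the gate took 178 of 3581 naive barcodes (4.97%). It took 214 of 4113 at D11 and 547 of 3883 at D14. Without thinning, a minimum of 3 UMIs took 194 naive (5.09%), 241 D11 and 624 D14 barcodes. In both settings the ratios to naive were below 1.20 at D11 and 3.24 at D14, and with no UMI of the excluded genes the D14 ratio was too. A minimum of 8 UMIs took 3.25% of naive barcodes. The naive share was 3.36% with no UMI of the excluded genes and 3.46% without the cells with neutrophil UMIs. At D11 it took 7.71% under that filter, 7.07% over barcodes under 10% hemoglobin, 4.38% with a minimum of 8 UMIs and 4.27% with no excluded UMI, and at D14 20.46%, 18.2% and 9.52% (stricter filter, low hemoglobin, no excluded UMI). The counts of genes past 2-fold moved with the minimum level. With 200 CPM 9 were higher and 6 lower at D11, 49 and 34 at D14, and 17 and 11 from D11 to D14. With 50 CPM 45 were higher and 74 lower at D11, 162 lower at D14 and 44 lower from D11 to D14. With no minimum these were 2366 and 2852 at D11, 3822 and 3143 at D14, and 3590 and 2287 from D11 to D14, where genes of few UMIs dominate. Lower genes at D11 numbered 44 with a gate minimum of 3 UMIs and 57 by the mean of per-cell CPM. Leaving out the cells with neutrophil UMIs turned the log2 ratios, with 1 CPM added, of Cebpd to 0.32, Cxcr2 to 0.78, Mxd1 to 1.11 and Slc40a1 to 0.94 at D14 and 0.12 at D11. It also turned S100a8, to 0.69 at D11 and 2.37 at D14, and S100a9, to 0.56 and 2.10. The D14 log2 intervals without those cells were -0.15 to 0.83 for Cebpd, -0.69 to 3.34 for Cxcr2 and -1.115 to 6.96 for Slc40a1. S100a8, S100a9 and Cxcr2 are among the genes that define those cells, so the filter itself limits their remaining levels. The class II median at D11 was -0.013 with a gate minimum of 3 UMIs, -0.15 with 8 and -0.0060 without those cells. The NF-kB median at D11 was 0.19 with a minimum of 6 UMIs, 0.11 with 8, 0.041 with no excluded UMI and 0.25 without those cells, and the immediate early median at D14 was then 0.061. The cause of these shifts was not tested, beyond what each setting removes. TMM factors moved all genes by 0.097 on the log2 scale at both days. Depth limits genes with a few UMIs in the naive library, which had the fewest gated cells.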

Other observations

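Among the 45 D11 gated cells with class II transcripts, Adam23 had 146 UMIs and Dkk2 129, and all of these lay in the same 1 cell. Neither was read as a gene of that subset.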
